A study of Mus musculus with 2 samples.

Results

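The data describe 8 enzymes of the cholesterol synthesis pathway in mouse tumours: Hmgcs1, Idi1, Fdps, Fdft1, Sqle, Lss, Cyp51 and Msmo1. They were taken by gene symbol from 31054 counted features, and all 8 were found in both libraries. Each library holds single cells from pooled tumours that were sorted by the red fluorescence of mCherry. The adult library comes from mice aged 24 weeks and the young library from mice aged 4 weeks. Both carry the stage label d7, and each age is 1 library. The sources used here give no mouse strain, sex, tumour type or number of mice pooled, and do not say what carries the mCherry construct. With 1 library per age, age cannot be told apart from the tumour pool, the sort or the library, and no difference between ages has a replicate check.

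Cholesterol is built from acetyl-CoA through mevalonate, isoprenoid diphosphates and squalene. The genes of this route share a transcription factor, SREBP2, which the proteins SCAP and INSIG hold in the endoplasmic reticulum while sterols are plentiful. Macrophages are known for taking up, storing and exporting cholesterol through genes of the liver X receptors, and for making 25-hydroxycholesterol, an oxysterol that restrains SREBP2, in response to interferon. Dividing cells need new sterol for their membranes.

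The 8 enzymes lie on 7 chromosomes of the mm10 build. Hmgcs1 (chr13:119690379-119708260, plus strand) joins acetyl groups into HMG-CoA, and Idi1 (chr13:8885501-8892451, plus) isomerises isopentenyl diphosphate. Fdps (chr3:89093588-89101959, minus) makes farnesyl diphosphate, and Fdft1 (chr14:63145150-63179578, minus) joins farnesyl units into squalene. Sqle (chr15:59315077-59331192, plus) oxidises squalene, and Lss (chr10:76531588-76557138, plus) closes it to lanosterol. Cyp51 (chr5:4081145-4104746, minus) and Msmo1 (chr8:64718139-64733792, minus) remove methyl groups from lanosterol and its products. The RefSeq promoter table (GRCm38.p6) held 5 of the 8, without Fdps, Fdft1 and Sqle. The windows upstream of the annotated exons of Hmgcs1 (chr13:119690101-119690350, plus strand) and Cyp51 (chr5:4104747-4104947, minus strand) are shown because these genes stand for the small and the large difference between the ages described below. Both run 5′ to 3′ on the gene's strand, and capitals mark matches, which do not overlap each other, on either strand to CACNCCA (the core of a sterol element), CCAAT or GGGCGG (a GC box).
Hmgcs1: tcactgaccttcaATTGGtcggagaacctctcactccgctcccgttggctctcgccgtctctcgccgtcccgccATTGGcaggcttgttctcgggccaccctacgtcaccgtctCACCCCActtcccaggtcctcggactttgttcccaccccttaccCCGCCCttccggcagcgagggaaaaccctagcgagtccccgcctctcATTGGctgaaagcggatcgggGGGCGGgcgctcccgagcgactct
Cyp51: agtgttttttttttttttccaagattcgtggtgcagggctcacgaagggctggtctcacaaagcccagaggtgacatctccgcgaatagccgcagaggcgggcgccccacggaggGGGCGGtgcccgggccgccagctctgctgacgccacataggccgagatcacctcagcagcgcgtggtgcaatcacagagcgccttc
In the 250 bases before the RefSeq start, CACNCCA was found for Hmgcs1 and Msmo1 only, 2 of 5, and in 15.6% of 32851 promoters. CCAAT and GGGCGG were each found in 5 of 5, against 33.8% and 32.7% of promoters, and 11.0% of promoters held both. The CCAAT match of Cyp51 lies in, or reaches into, the annotated exon bases that are not printed. These motifs are short, and a match is not a binding site.

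The adult library held 6279 barcodes with 70988070 UMIs (unique molecular identifiers, each standing for 1 captured mRNA), and the young library 7558 barcodes with 84862471 UMIs. The target in the design text was 10000 cells per library. After filtering, 5774 adult cells (median 9660 UMIs) and 7090 young cells (median 9842 UMIs) remained. Cells with at least 10 mCherry UMIs are called mCherry-high (476 adult, 423 young). Among the others, CD3 cells had at least 2 UMIs of Cd3d, Cd3e and Cd3g (121 adult, 63 young), Ccr7 cells at least 1 Ccr7 UMI (159 adult, 157 young) and Csf1r cells at least 1 Csf1r UMI (4243 adult, 5406 young), with 775 adult and 1041 young cells remaining. Csf1r cells carried all 9 macrophage and monocyte markers (12523 CPM summed in adult, 15120 CPM in young, where CPM is counts per 1000000 UMIs of the class) and almost no T cell markers (4.92 and 4.42 CPM over 9 genes). Csf1r itself, at 377 CPM in each library, is among those macrophage markers. Cd3d, Cd3e and Cd3g are among the T cell markers, so both results follow in part from the gates. The mCherry-high cells had little of the leukocyte gene Ptprc (17.5 CPM adult, 25.03 CPM young) and were given no cell type. Of them, 174 in adult (36.6%) and 197 in young (46.6%) also met the Csf1r gate. Their median depth was 31335 UMIs in adult and 32751 UMIs in young, against 10049 and 10293 UMIs in Csf1r cells. The CD3 cells also held macrophage markers at 3508 CPM in adult and 5243 CPM in young, and the Ccr7 cells at 7622 and 9760 CPM. The libraries shared 111 barcodes. Of these, 38 were mCherry-high in adult with a median of 78728 UMIs and were among the remaining young cells with a median of 595.5 UMIs. The sums and calls below for mCherry-high cells are therefore given with and without shared barcodes, except in the plots and where enzymes are counted together per cell.

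In Csf1r cells the 8 enzymes summed to 153 CPM in adult (7124 UMIs) and 70.4 CPM in young (4157 UMIs), a ratio of 2.17 (2.09 to 2.26). Intervals here and below are 95% and cover counting error only. A gene is called higher or lower when the ratio passes 1.5-fold and its interval leaves out 1. By that rule 7 of 8 enzymes were higher in adult and none was lower, where 2.53% of 6481 genes at 10 CPM or more were called higher and 3.39% lower. Lss was under 10 CPM in both libraries, so 6 of the 7 enzymes that passed that minimum were called. The 8 enzymes were chosen with earlier results of these data known, so these counts may follow in part from that choice.

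The ratios of the 8 enzymes fell into 2 sizes. Among the earlier steps, Hmgcs1 was at 16.7 CPM in adult and 10.9 CPM in young Csf1r cells, a ratio of 1.52 (1.37 to 1.69). Idi1 was at 12.3 CPM in adult and 3.81 CPM in young, a ratio of 3.22 (2.75 to 3.77). Fdps, at the branch point to other isoprenoids, was at 48.4 CPM in adult and 16.3 CPM in young, a ratio of 2.97 (2.76 to 3.21). The branch point and the step before it were thus set further apart between the libraries than Hmgcs1 was. Fdft1, the first enzyme of the sterol branch, was at 13.1 CPM in adult and 8.86 CPM in young. Its ratio of 1.48 (1.31 to 1.67) lay just under the limit. Sqle, a rate-limiting oxidase, was at 11.8 CPM in adult and 3.52 CPM in young, a ratio of 3.35 (2.85 to 3.94). After squalene, Lss stood at 2.25 CPM in adult and 1.39 CPM in young, with a ratio of 1.62 (1.20 to 2.19) from 105 and 82 UMIs. Cyp51 was at 18.0 CPM in adult and 5.57 CPM in young, a ratio of 3.24 (2.85 to 3.69), while its neighbour Msmo1 was at 30.4 CPM in adult and 20.01 CPM in young, a ratio of 1.52 (1.41 to 1.64). The intervals of Idi1, Fdps, Sqle and Cyp51 did not overlap those of the other 4 enzymes.

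**Figure D1:**
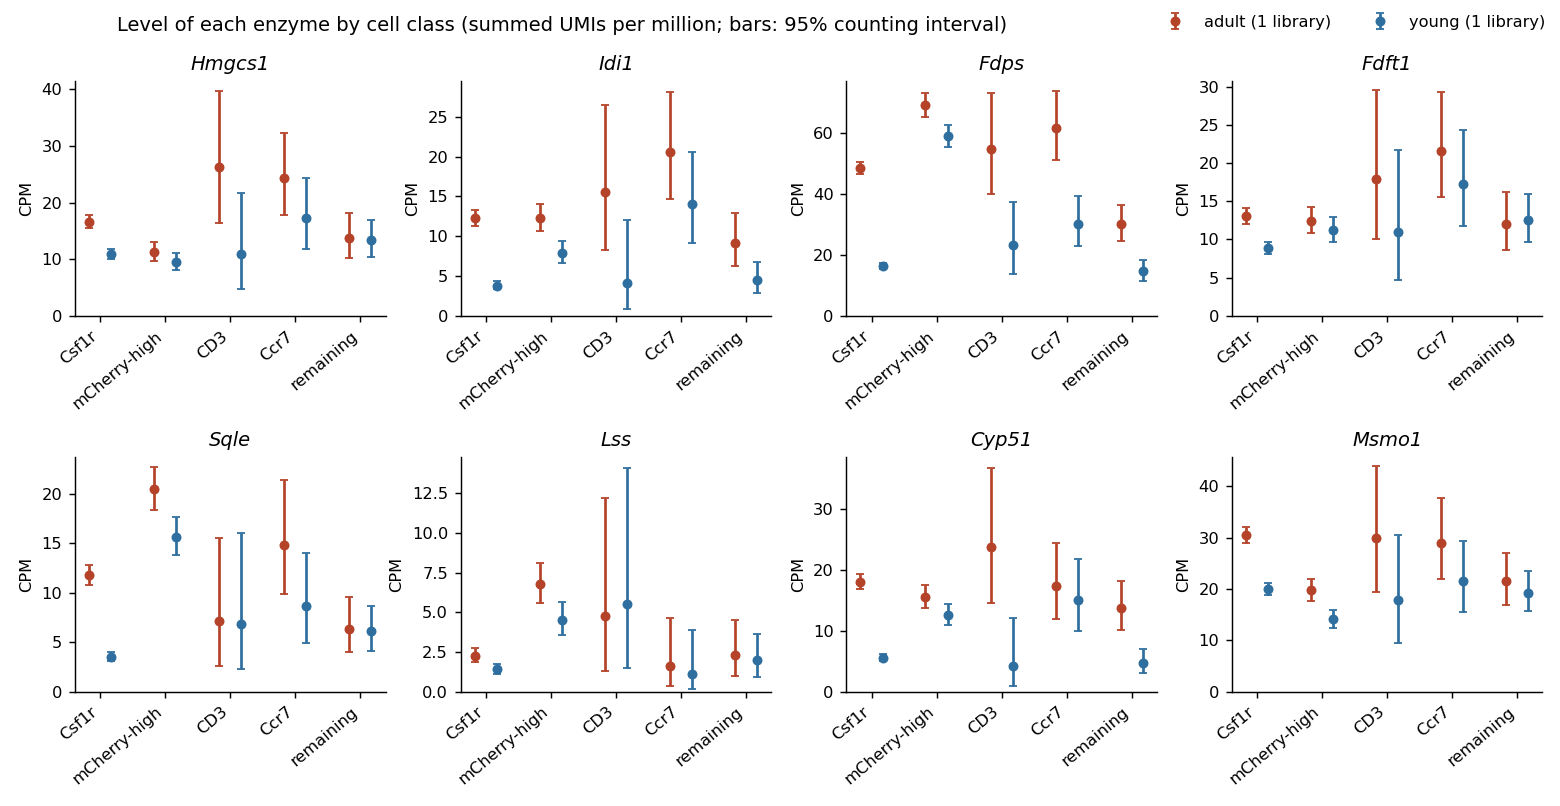
CPM of each enzyme (vertical axes) in 5 cell classes of the adult and the young library, with 95% counting intervals. In Csf1r cells the adult point lies above the young one for every enzyme, by 3.35-fold for Sqle and 1.48-fold for Fdft1.

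The rest of the sterol route was higher in adult at fewer steps. Of its 12 other genes, 5 were at 10 CPM or more in Csf1r cells and 1 was called higher in adult. That gene was Mvd, the mevalonate diphosphate decarboxylase, at 19.0 CPM in adult and 10.7 CPM in young (ratio 1.77, 1.59 to 1.96). Below 10 CPM, Hsd17b7 (ratio 3.03), Sc5d (1.78) and Dhcr7 (1.60) passed the limit, so large ratios were found late in the route as well. Apoe and these genes below 10 CPM were named after their values were seen. The list's median log2 ratio was 0.39, over genes at 10 CPM or more. It was 1.46 for the 7 of the 8 enzymes at that level, without Lss, and -0.05 for all genes tested. The 8 enzymes and the lists were chosen with earlier results of these data known. The gap between them may follow in part from that choice.

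Of 14 genes for SREBP control, sterol uptake and transport, 10 were at 10 CPM or more. Of these, 3 were higher in adult Csf1r cells and none was lower. Srebf2, which encodes SREBP2, was at 57.2 CPM in adult and 36.8 CPM in young (ratio 1.56, 1.47 to 1.65). Insig1, an SREBP2 target that also restrains it, was at 34.7 CPM in adult and 21.6 CPM in young (1.61, 1.49 to 1.73), and Stard4, a sterol carrier, at 11.5 CPM in adult and 4.45 CPM in young (2.59, 2.23 to 3.01). The genes of efflux, storage and oxysterols stood the other way: of 11 at 10 CPM or more, none was higher and 7 were lower in adult. Abca1, the cholesterol exporter, was at 59.3 CPM in adult and 108 CPM in young (ratio 0.548, 0.523 to 0.573). Nr1h3, a liver X receptor, had a ratio of 0.441 (0.394 to 0.493), and Plin2, which coats lipid droplets, a ratio of 0.489 (0.479 to 0.498). Ch25h, the cholesterol 25-hydroxylase, was at 44.4 CPM in adult and 82.6 CPM in young (0.537, 0.510 to 0.565). Apoe, a carrier of exported cholesterol, was within the limit at 1.13. Fatty acid synthesis had 2 of 10 genes at 10 CPM or more, of which Scd2, a desaturase, was higher in adult (20.7 CPM against 12.3 CPM in young). Of 7 genes of the other isoprenoid branches, 4 were at 10 CPM or more and none of those passed the limit in either direction.

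In mCherry-high cells the difference between the libraries was smaller, and it shrank when cells with shared barcodes were left out. The 8 enzymes summed to 168 CPM in adult (2860 UMIs) and 134 CPM in young (2316 UMIs), a ratio of 1.25 (1.18 to 1.32). Only Idi1 was called, at 12.3 CPM in adult and 7.95 CPM in young (ratio 1.54, 1.24 to 1.93), so 1 of 8 was higher where 0.948% of 6648 genes were called higher. The other ratios ran between 1.11 for Fdft1 and 1.49 for Lss. The 41 adult mCherry-high cells whose barcode was also in the young library held 18.8% of the class's adult UMIs and an enzyme sum of 233 CPM. Their median depth was 78623 UMIs, and only 2 young mCherry-high cells had a shared barcode. Leaving out shared barcodes thus took out mainly deep adult cells. Without shared barcodes the sum was 153 CPM in adult and 135 CPM in young, a ratio of 1.13 (1.07 to 1.20), and no enzyme was called. In that comparison 0.877% of genes were called higher in adult. Depth moved with the level: the deepest 5% of cells in each library took in 260 adult and 256 young mCherry-high cells, with sums of 179 CPM in adult and 137 CPM in young, and the other mCherry-high cells were at 120 and 118 CPM. Without shared barcodes the deepest cells were at 163 CPM in adult and 137 CPM in young, and the others at 119 CPM in each library. Of those deepest cells 81.2% in adult and 86.3% in young were cycling by the rule given below, against 44.9% of the others in each library. Macrophage markers summed to 702 CPM in adult and 1220 CPM in young mCherry-high cells, and fibroblast markers to 285 and 167 CPM. Whether other cells' RNA, depth, doublets or cycling had a part in these values was not tested. Among the other genes of the pathway, Mvd (1.62), Insig1 (1.57) and Scd2 (1.58) were higher in adult mCherry-high cells and Abca1 lower (0.38, where 4.29% of genes were) at 10 CPM or more. Without shared barcodes Insig1 fell out of the call at 1.49, while Mvd (1.53), Scd2 (1.53) and Abca1 (0.372) kept theirs.

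In CD3 cells the sum was 180 CPM in adult from 151 UMIs and 84.0 CPM in young from 61 UMIs, a ratio of 2.15 (1.58 to 2.94). Of the 8 enzymes 4 were higher in adult (Hmgcs1, Idi1, Fdps and Cyp51), where 7.32% of genes were. Without shared barcodes, 1 per library here, Hmgcs1 fell out of the call and 3 remained, with 7.4% of genes called. Cyp51 stood furthest apart, at 23.9 CPM in adult and 4.13 CPM in young, but the young value is 3 UMIs. Adult CD3 cells held less of the 4 NK cell markers (323 CPM against 1386 CPM in young) and of the 9 macrophage markers (3508 CPM against 5243 CPM in young), and their median depth was 4573 UMIs in adult and 9164 UMIs in young. The part of these differences in the result was not tested. In Ccr7 cells the sum was 191 CPM in adult and 125 CPM in young, a ratio of 1.53 (1.29 to 1.81), and Fdps alone was called (61.8 CPM in adult, 30.2 CPM in young), against 3.67% of genes. With at least 3 Ccr7 UMIs, in 54 adult and 53 young cells that held more of the dendritic cell chemokine Ccl22 (1987 and 1917 CPM, against 777 and 664 CPM in all Ccr7 cells), the sum was 187 CPM in adult and 177 CPM in young. That ratio was 1.06 (0.811 to 1.37), so no difference of the sum was detectable at this depth. Fdps was again called at 2.25 (1.29 to 4.07), beside 3.41% of genes, while 6 of 8 enzymes had ratios below 1, between 0.591 for Sqle and 0.929 for Lss, all with intervals holding 1. Among the remaining cells the sum was 109 CPM in adult and 77.1 CPM in young, a ratio of 1.41 (1.22 to 1.63), with Idi1, Fdps and Cyp51 higher in adult against 6.74% of genes. Idi1 was at 9.18 CPM in adult and 4.51 CPM in young, under the 10 CPM behind that share. Neutrophil markers of the remaining cells stood at 8729 CPM in adult and 2811 CPM in young, their fibroblast markers at 399 and 15.7 CPM, their T cell markers at 69.1 and 20.6 CPM and their macrophage markers at 7692 and 10567 CPM. The part of these differences was not tested.

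The order of the classes differed between the libraries. In adult, Ccr7 (191 CPM), CD3 (180 CPM) and mCherry-high cells (168 CPM) had overlapping intervals, with Csf1r (153 CPM) and the remaining cells (109 CPM) below them. CD3 and Csf1r cells did not differ beyond counting error in adult (ratio 1.18, 0.996 to 1.38). In young, mCherry-high (134 CPM) and Ccr7 cells (125 CPM) overlapped, CD3 cells (84.0 CPM) overlapped with the remaining cells (77.1 CPM), and those overlapped with Csf1r cells (70.4 CPM), the lowest. Set against Csf1r cells of the same library, mCherry-high cells had 1.10 times the sum in adult (1.05 to 1.15) and 1.91 times in young (1.82 to 2.01). Without shared barcodes the adult ratio was 1.001 (0.953 to 1.05), and without the deepest 5% of cells it turned to 0.796, so the adult direction depends on which cells are counted. The young ratio was 1.91 and 1.71 under the same changes. In young, Sqle (15.7 CPM in mCherry-high, 3.52 CPM in Csf1r cells), Fdps (58.9 and 16.3 CPM), Lss, Cyp51 and Idi1 were higher in mCherry-high cells, 5 of 8, beside 34.1% of genes. Lss and Idi1 lay under 10 CPM in both classes, with and without shared barcodes, so the share of genes does not cover them. In adult, Sqle (20.5 and 11.8 CPM) and Lss (6.75 and 2.25 CPM) were higher, 2 of 8, beside 34.6% of genes. Lss lay under 10 CPM there too, with and without shared barcodes. Msmo1 was lower in adult mCherry-high cells (19.8 CPM, against 30.4 CPM in Csf1r cells), where 34.9% of genes were lower. Without shared barcodes Sqle fell out of the adult call at 1.47, Lss remained (32.7% of genes), and Hmgcs1 joined Msmo1 among the lower ones (0.634, with 36.5% of genes). The young calls were then the same 5 enzymes, beside 34.2% of genes. The adult share of enzymes called higher was not above that of all genes, since the classes differ widely. Hmgcs1 and Msmo1 had ratios below 1 in both libraries, though the young interval of Hmgcs1 (0.724 to 1.03) held 1. Lss was called higher in both libraries, with and without shared barcodes.

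The higher adult level was found across the states of Csf1r cells. Cells with a UMI of Ly6c2, a monocyte gene, held 147 CPM of the enzymes in adult and 70.5 CPM in young. Cells without it held 177 CPM in adult and 68.4 CPM in young, and the ratio of cells with Ly6c2 over cells without was 0.831 (0.786 to 0.880) in adult and 1.03 (0.910 to 1.17) in young. Adult levels stepped down with Ly6c2, 177, 168, 144 and 118 CPM in cells with 0, 1 to 4, 5 to 19 and at least 20 UMIs, and young levels did not follow that order (68.4, 81.8, 65.5 and 67.9 CPM). For C1qa, a complement gene of mature macrophages, cells with over cells without it had a ratio of 1.13 (1.07 to 1.19) in adult and 0.993 (0.926 to 1.07) in young. For Mrc1, the mannose receptor, the ratio was 1.31 (1.25 to 1.38) in adult, with 186 CPM in cells with it and 142 CPM in cells without, and 1.14 (1.03 to 1.27) in young. Cells with Mrc1 were 19.8% of adult and 6.96% of young Csf1r cells, and they were deeper than cells without it. For Ifit1, an interferon-induced gene, the ratio was 0.921 (0.871 to 0.974) in adult and 0.953 (0.894 to 1.02) in young. These splits called at most 1 enzyme in either direction. Those calls were Hmgcs1 higher with Ly6c2 in young (0.915% of genes), Lss higher with Mrc1 in adult (2% of genes), Lss lower with Ifit1 in adult (0.22%) and Sqle lower with Ifit1 in young (0.0935%). These shares are over genes at 10 CPM or more and do not cover the Lss and Sqle calls, which lay under that level. With and without Ifit1, Lss was at 1.37 and 2.53 CPM in adult and Sqle at 2.68 and 4.03 CPM in young.

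Between the libraries, the summed ratio of adult over young was 2.59 in cells without Ly6c2 and 2.09 with it, 2.26 with C1qa and 1.99 without, 2.34 with Mrc1 and 2.04 without, and 2.10 with Ifit1 and 2.17 without. Csf1r cells also carried some mCherry UMIs, and the ratio was 2.03 in cells with any and 2.21 in cells with none. Splitting by Ly6c2, Mrc1, Ifit1 and at least 5 UMIs of C1qa together left 10 strata with at least 50 cells in each library. The adult sum was above the young one in all 10, by 1.67-fold (1.48 to 1.88) to 2.79-fold (2.21 to 3.55), with every interval above 1. With both libraries set to the same mix of such strata the ratio was 2.01. In each single-gene stratum, Idi1, Fdps, Sqle and Cyp51 all had a larger ratio than each of the other 4 enzymes. In cycling cells they did not, since Idi1 was at 1.58 and Cyp51 at 1.38 while Hmgcs1 was at 1.76. These strata are parts of the same Csf1r cells in which this grouping was first seen, so they are no separate check. Outside Csf1r cells the order did not hold. In mCherry-high cells Fdps was at 1.17 and Lss at 1.49 (1.11 and 1.48 without shared barcodes). Sqle was at 1.04 and Hmgcs1 at 2.38 in CD3 cells. For Ccr7 cells Cyp51 was at 1.15 and Hmgcs1 at 1.41. Among the remaining cells Sqle was at 1.04 and Msmo1 at 1.12.

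**Figure D2:**
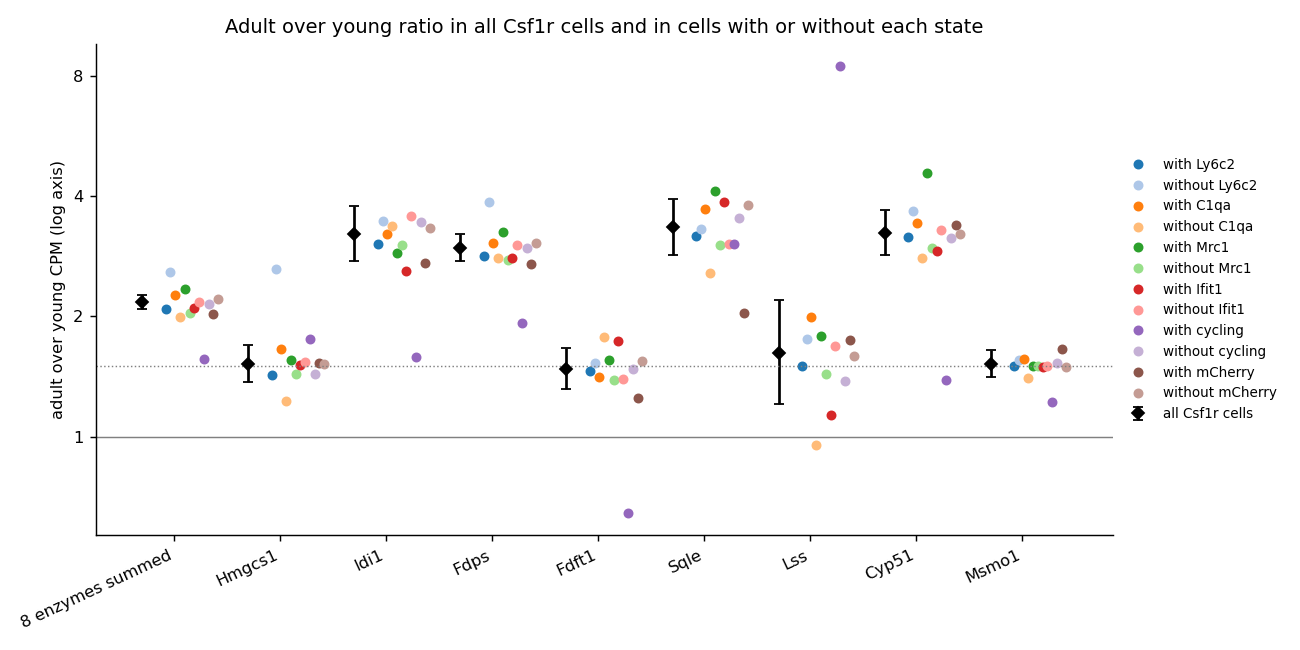
Adult over young CPM ratio (log axis) of the summed and the single enzymes in all Csf1r cells (black, with 95% counting interval) and in cells with or without each state (coloured); the dotted line marks the 1.5-fold limit. The summed ratio lies between 1.56 and 2.59 in every state, and the point furthest out, Lss at 8.46, is in cycling cells, where few UMIs were counted.

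Cycling cells had higher enzyme levels. Cells with at least 5 UMIs over 12 genes of S phase and mitosis were set against cells with none. In adult Csf1r cells the sum was 230 CPM in 83 cycling cells and 145 CPM in 3411 non-cycling cells, a ratio of 1.59 (1.43 to 1.76). In young Csf1r cells it was 147 CPM in 77 cycling and 67.6 CPM in 4327 non-cycling cells, a ratio of 2.18 (1.89 to 2.49). The adult level lay above the young one in both states, by 1.56-fold in cycling cells (1.32 to 1.85) and 2.14-fold in non-cycling cells (2.05 to 2.24). Higher in cycling cells were 5 of 8 enzymes in adult, beside 22.8% of genes, and 5 of 8 in young, beside 18.3%. Lss, among the adult ones, lay under 10 CPM in both states, so the adult share does not cover it. Fdps was at 92.5 CPM in cycling and 44.9 CPM in non-cycling adult cells (ratio 2.06, 1.73 to 2.44), and at 48.0 and 15.1 CPM in young cells (3.17, 2.46 to 4.04). Idi1 was also called in both libraries. Hmgcs1, Sqle and Lss were called in adult only and Fdft1, Cyp51 and Msmo1 in young only, and the difference between the libraries was not tested for them. Fdft1 in cycling cells was at 14.6 CPM in adult and 22.7 CPM in young, the reverse of the other enzymes, though the interval of its ratio (0.367 to 1.11) holds 1.

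Median depth was 18337 UMIs in cycling adult Csf1r cells and 9723 UMIs in non-cycling ones, and 19521 and 10045 UMIs in young. Among mCherry-high cells the medians were 41051 UMIs in cycling and 18131 UMIs in non-cycling adult cells, and 46952 and 10786.5 UMIs in young. The part of depth in the cycling ratios was not tested. In mCherry-high cells the sum was 187 CPM in 308 cycling and 81.7 CPM in 51 non-cycling adult cells (2.29, 1.83 to 2.89), and 145 and 67.0 CPM in 296 and 34 young cells (2.16, 1.49 to 3.26). There, 5 of 8 enzymes were higher in cycling cells in adult beside 32.8% of genes, and 1 of 8, Fdps, in young beside 42.3%. Without shared barcodes the adult cycling cells were at 172 CPM, a ratio of 2.11 (1.69 to 2.67), and Msmo1 fell out of the call, so that 4 enzymes remained beside 29.2% of genes. The young ratio was then 2.16, with Fdps still called beside 42.3% of genes. Thinned to 5000 UMIs per cell, the ratio of cycling over non-cycling Csf1r cells was 1.70 in adult and 2.22 in young. Cycling was still scored before thinning, so this ratio does not remove the selection of deeper cells. Without the deepest 5% of cells the ratio in Csf1r cells was 1.25 in adult and 1.96 in young.

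**Figure D3:**
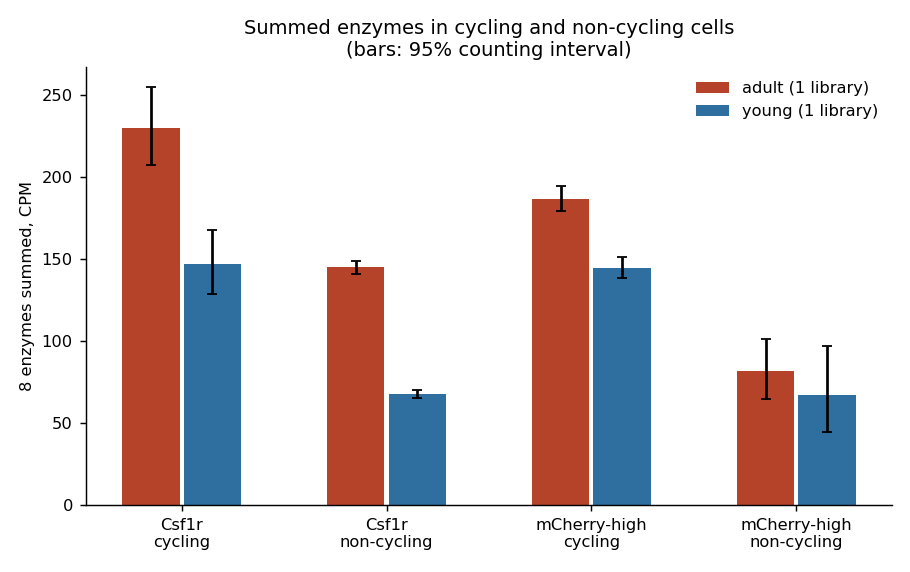
CPM of the 8 enzymes summed in cycling and non-cycling cells of 2 classes, with 95% counting intervals. Cycling cells stand above non-cycling ones in each class and library, and adult stands above young most clearly in non-cycling Csf1r cells (145 and 67.6 CPM).

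Against a wider interferon measure the enzymes stepped down. Csf1r cells of each library were ranked by the share of their UMIs from 10 interferon-induced genes and cut into quartiles. From the lowest to the highest quartile the enzyme sum was 204, 162, 122 and 110 CPM in adult, and 86.2, 67.8, 63.8 and 59.8 CPM in young. The highest over the lowest quartile had a ratio of 0.538 (0.501 to 0.578) in adult and 0.694 (0.634 to 0.759) in young. In adult 7 of 8 enzymes were lower in the highest quartile, where 7.99% of genes were. Lss, among the 7, lay under 10 CPM in both quartiles, so that share does not cover it. Fdft1 was just within the limit at 0.675. Sqle was at 6.89 CPM in the highest and 17.1 CPM in the lowest adult quartile (0.402, 0.302 to 0.530). In young 5 of 8 were lower, where 8.86% of genes were. Of the 4 enzymes that reached the 10 CPM behind that share, Fdps and Fdft1 were called. Idi1, Cyp51 and Sqle lay below it, with Sqle at 2.36 CPM in the highest and 5.07 CPM in the lowest quartile. Hmgcs1 did not step down in young, at 11.9 CPM in the highest and 9.96 CPM in the lowest quartile (1.19, 0.947 to 1.496). Of the other sterol genes, Sc5d, a desaturase of the sterol ring, was lower in the highest quartile in adult (6.89 against 11.2 CPM) and in young (4.06 against 6.14 CPM).

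**Figure D4:**
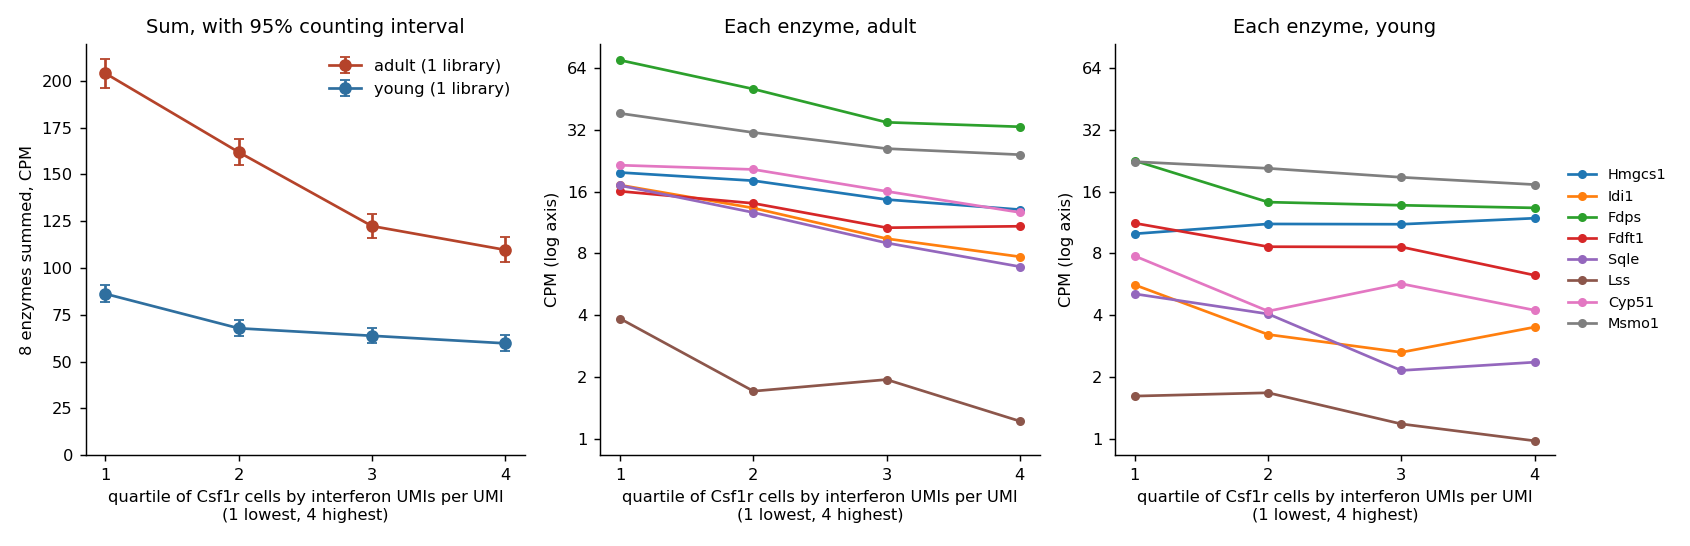
Left, CPM of the 8 enzymes summed by quartile of interferon-induced UMIs in Csf1r cells, with 95% counting intervals; middle and right, each enzyme in adult and young (log axes). The sum is lowest in the highest quartile of both libraries (110 CPM in adult, 59.8 CPM in young), and every adult quartile lies above every young one.

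The list was carried by Isg15 (43.1% of its UMIs in adult, 37.2% in young) and Irf7 (23.0% and 26.6%), and without Isg15 the ratio of highest over lowest quartile was 0.522 in adult and 0.636 in young. Other features moved along the quartiles too. From lowest to highest in adult, Ly6c2 went 431, 817, 1308 and 2151 CPM, Ch25h 18.9, 41.1, 53.5 and 71.6 CPM, Mgl2 (a lectin of alternatively activated macrophages) 95.9, 62.3, 22.8 and 24.3 CPM, the cycling genes 108, 69.1, 67.0 and 36.2 CPM and median depth 11628, 11002, 9746 and 8504 UMIs. Ch25h in young went 70.4, 77.3, 77.0 and 113 CPM. The part of these features in the enzyme result was not tested. Interferon-induced genes summed to 2109 CPM in adult and 3434 CPM in young Csf1r cells. Within 5 bands of equal interferon CPM the adult sum remained above the young one, by 1.75-fold (1.62 to 1.88) to 2.01-fold (1.83 to 2.21). In the band under 500 CPM it was 207 CPM in 642 adult cells and 118 CPM in 151 young cells, and in the band of at least 4000 CPM it was 109 CPM in 659 adult cells and 61.1 CPM in 1756 young cells. In mCherry-high cells the single-gene split by Ifit1 ran the other way, with 211 CPM in cells with and 152 CPM in cells without Ifit1 in adult (1.39, 1.28 to 1.503) and 143 and 122 CPM in young (1.17, 1.08 to 1.28). Without shared barcodes these ratios were 1.28 (1.16 to 1.40) in adult and 1.17 in young. There the cells with Ifit1 had a median of 47695 UMIs in adult and 59190 UMIs in young, against 28534 and 22925 UMIs in cells without.

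Few enzyme UMIs were seen in any single cell. After thinning to 5000 UMIs, which left out 394 adult and 529 young Csf1r cells with fewer, 61.0% of adult and 74.0% of young Csf1r cells had none of the 8 enzymes. Cells with 3 or more UMIs were 6.65% in adult and 1.44% in young, and cells with 5 or more were 61 of 3849 in adult and 11 of 4877 in young. Without thinning, 56.4% of adult and 43.9% of young cells had at least 1. The mean was 0.678 UMIs per thinned cell in adult and 0.340 UMIs in young. Adult Csf1r cells thus more often had any enzyme UMI and more often had several. At such low means an even rise in every cell would give both, so these counts do not show which cells differ. In mCherry-high cells the thinned mean was 0.779 UMIs in adult and 0.644 UMIs in young (0.739 and 0.647 UMIs without shared barcodes), and no class here should lack these genes, so the level given by free RNA was not measured.

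**Figure D5:**
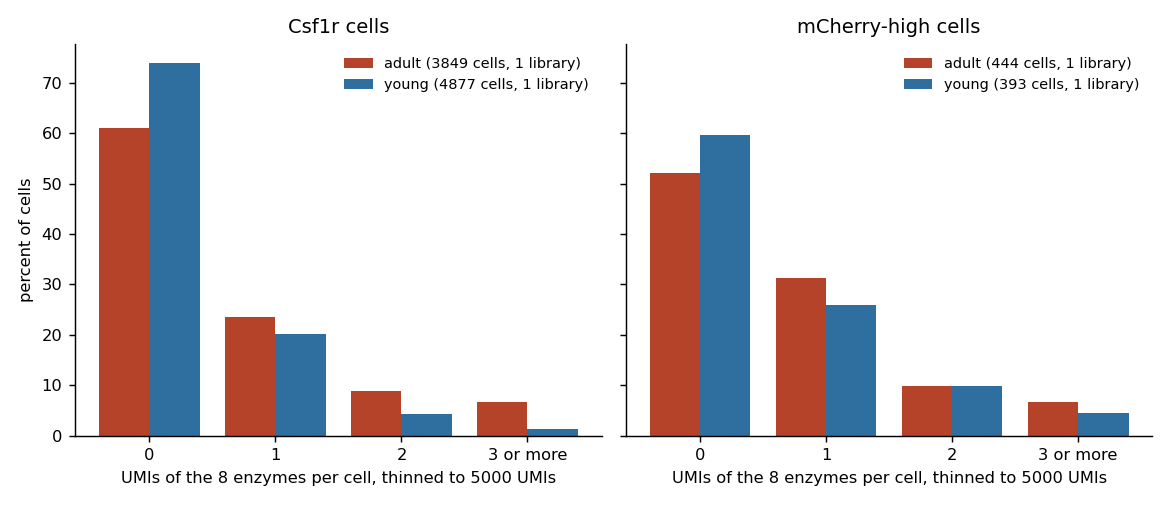
Percent of cells (vertical axis) by the number of UMIs of the 8 enzymes after thinning each cell to 5000 UMIs, in Csf1r and mCherry-high cells. In Csf1r cells 61.0% of adult and 74.0% of young cells had none.

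In Csf1r cells most of the enzymes were found in the same cells more than apart. Thinned Csf1r cells with at least 2 UMIs of the other 7 enzymes had more of each enzyme than cells with none of those 7. In adult the ratio ran between 2.22 (1.64 to 2.98) for Hmgcs1 and 5.76 (4.13 to 8.07) for Idi1, with all 8 intervals above 1. In young it ran between 1.36 for Hmgcs1 (0.764 to 2.27) and 5.04 (2.97 to 8.27) for Cyp51, and the intervals of Hmgcs1 and Lss held 1. Hmgcs1 had the lowest ratio in both libraries. In mCherry-high cells, with far fewer cells, 3 of 8 intervals lay above 1 in adult (Idi1, Fdps and Cyp51) and 1 of 8 in young (Fdps), and the others held 1. Csf1r cells with at least 2 enzyme UMIs, 598 in adult and 282 in young, were set against cells with none. They had more Sc5d in adult (21.4 against 5.29 CPM) and in young (9.93 against 5.16 CPM), which is outside the 8 enzymes. The other 12 sterol genes summed to a ratio of 1.91 (1.76 to 2.06) in adult and 1.38 (1.22 to 1.56) in young. Srebf2 was higher in enzyme-rich cells, at 1.93 (1.66 to 2.24) in adult and 1.80 (1.43 to 2.24) in young. Abca1 was at 0.692 (0.570 to 0.835) in adult and 0.598 (0.483 to 0.733) in young, and Ch25h at 0.656 and 0.669. The cycling genes were higher, at 2.20 in adult and 3.05 in young, and the interferon genes lower, at 0.738 and 0.804. Such cells had a median of 12185 UMIs before thinning in adult and 11623 UMIs in young, against 10079 and 10708 UMIs in cells with none.

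Across pools of Csf1r cells, 10 adult and 7 young ones split by state, the genes whose level was most like the mean of the 8 enzymes were compared by Pearson's r of log2(CPM + 5), over 4459 genes at 20 CPM or more. The pools of a library share its depth and its age, so a gene that differs between the libraries scores high. The leading genes were Mgl2 (r = 0.965), Insig1 (0.964) and Cdh1 (0.949), followed by Rpl10-ps3, Rps9, P4hb, mt-Nd3, Nme1, Sec11c and Canx. With each library centred on its own mean, they were Cltc (0.838), Insig1 (0.834) and Gpx4 (0.830), followed by Aamp, Sars, Adss, Aldoc, Ergic1, Dcaf7 and Tspan14, so only Insig1 stood among the first 10 both ways. Over all 24 pools of every class Rps9 (0.870), D10Jhu81e (0.849) and Mgl2 (0.824) led, and Rpl10-ps3, Ssr1, Vrk1, Rpl39, mt-Nd1 and Snd1 were also among the first 10. Each enzyme against the mean of the other 7 gave r between 0.688 for Lss and 0.967 for Fdps in Csf1r pools, and between 0.455 for Fdft1 and 0.799 for Fdps once centred per library. Of the listed genes outside the 8, Mvd was at 0.937 in Csf1r pools and at 0.577 once centred per library.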

How the data were processed

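Cells sorted for mCherry from pooled tumours of adult and young mice were measured by droplet single-cell RNA sequencing, 1 library per age. The values are raw UMI counts per gene and barcode as deposited by the authors. Cell Ranger 3.0.2 and mm10 are listed in the submitters' processing notes. The annotation used and any barcode filter were not given in the sources used here. A barcode was kept when 200 or more genes were detected and no more than 10% of its UMIs were mitochondrial. Depth is given with the libraries' description.

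Each cell entered the first gate it met, in the order mCherry, CD3, Ccr7, Csf1r. UMIs were summed per class and library and divided by all UMIs of the class (CPM). CPM have exact Poisson intervals, and ratios exact conditional binomial intervals, at 95%. They cover counting error only. A ratio was called when it passed 1.5-fold and its interval left out 1; shares of all genes called are over those reaching 10 CPM in either group. No p-value was computed, since each age has 1 library. No doublet caller was run; an alternative leaves out the 5% deepest cells. Per-cell values were thinned to 5000 UMIs with seed 1.

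The 8 enzymes and the gene lists were chosen with earlier results of these data known. Genes named were all 8 enzymes, per list and class at most the 4 called genes furthest apart in each direction at 10 CPM or more, and the 10 genes most alike; other names were chosen after their values were seen, and some genes are not reported here. Alternatives changed the barcode filter, cell weights, depth, scaling, gates, fold limit and state definitions. The steps were tested on simulated data. Python 3.11.15, numpy 2.4.6, scipy 1.17.1, pandas 2.3.3 and matplotlib 3.10.9 were used. Gene positions are from GENCODE (mm10) and promoters from RefSeq (GRCm38.p6).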

Additional observations from a re-analysis of the deposited data

Results flagged for a closer look

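The following contrasts of the enzymes lay on opposite sides of 1 in the libraries or classes compared, and with 1 library per age none of these differences was tested. Cyp51 in mCherry-high over Csf1r cells had a ratio of 0.865 in adult and 2.27 in young (0.819 and 2.27 without shared barcodes). Hmgcs1 in Csf1r cells with Ly6c2 over cells without had a ratio of 0.815 in adult and 1.51 in young. Sqle in Csf1r cells with an mCherry UMI over cells with none had a ratio of 0.793 in adult and 1.48 in young. For Ifit1 the classes differed: in adult, cells with over cells without it had a summed ratio of 1.39 in mCherry-high and 0.921 in Csf1r cells, and Lss had 1.69 in mCherry-high and 0.541 in Csf1r cells. Without shared barcodes the mCherry-high values were 1.28 for the sum and 1.49 for Lss, whose interval then held 1 (0.934 to 2.32). In young, Sqle had 1.56 in mCherry-high and 0.666 in Csf1r cells. In mCherry-high cells, those with Ifit1 were also the deeper ones (medians of 47695 against 28534 UMIs in adult, and 59190 against 22925 UMIs in young), and the part of depth was not tested.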

How the results depend on the processing

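Of 104 recomputed values, 78 stayed near the reported one, within its 95% counting interval for a ratio or within 1.5-fold for a count, 25 moved further and 1 reversed. Values here are log2 ratios of the 8-enzyme sum or counts of enzymes. In Csf1r cells, adult over young was 1.12, and moved to 0.997 with thinned cells, 1.01 with the same mix of C1qa, Ly6c2, Mrc1 and Ifit1 strata and 0.87 with the same mix of interferon bands. The 7 enzymes called higher became 4 with a 2-fold limit, 5 with thinned cells and 5 in non-cycling cells. They became 6 at 10 CPM or more and 8 with stricter gates. With cells weighing the same 6 passed 1.5-fold, and with the same mix of strata 4 did. Both of those counts used no interval, and the one over strata added a pseudocount to each CPM, which pulls ratios towards 1. They are therefore not like the other counts. The share of all genes called higher was 2.46% in non-cycling cells and 2.53% at 10 CPM or more. It is not given here for the other alternatives. In mCherry-high cells, adult over young was 0.32, and moved to 0.22 with cells weighing the same, 0.0198 without the 5% deepest cells and 0.18 without shared barcodes. The 1 enzyme called there became 0 under each of these, with thinned cells and with a 2-fold limit, and 2 with median-of-ratios scaling and with stricter gates. Without shared barcodes 0.877% of all genes were called higher in adult mCherry-high cells. That share is not given here for the other alternatives that changed this count. The adult ratio of mCherry-high over Csf1r cells, 0.13, moved to 0.20 with thinned cells and 0.0016 without shared barcodes, and reversed to -0.33 without the 5% deepest cells; the young one, 0.93, moved to 0.78 without those cells. The Ifit1 ratio moved in adult to -0.0321 with at least 2 Ifit1 UMIs, -0.89 for interferon quartiles and -0.94 for quartiles without Isg15, and in young to -0.53 and -0.65 for the quartiles. Cycling over non-cycling in adult, 0.67, moved to 0.32 without the 5% deepest cells and 0.36 with Mki67 as the rule. The causes were not tested. The alternatives on shared barcodes, mCherry UMIs, interferon bands, Isg15, at least 3 Ccr7 UMIs and library centring were chosen after seeing the data. No paired analysis was possible because each age has 1 library, and for the same reason no replicate could be left out. Lss and, outside Csf1r and mCherry-high cells, every enzyme rest on few UMIs.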

Other observations

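Genes whose level ran most opposite to the 8 enzymes across the 17 pools of Csf1r cells were Slc11a1 (r = -0.979), a metal transporter of phagosomes, Fyb (-0.972) and Pla2g7 (-0.955), which encodes a lipoprotein-associated phospholipase. With each library centred on its own mean Slc11a1 still led (-0.866). Npc2, which carries cholesterol out of lysosomes, was at -0.907 and at -0.618 once centred. Cells rich in the enzymes also held more Mgl2, at 88.0 CPM against 37.4 CPM in adult cells with no enzyme UMI and at 7.80 against 1.05 CPM in young ones. These genes were named after their values were seen, and the pools of a library share its depth.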
